A study of Mus musculus with 19 samples.

Results

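Spleens of mice that carried the human HGAL gene and had tumours were compared with spleens of wild-type mice, over 16 of the 19 arrays of the series. The 13 tumour arrays came from mice whose Rosa26-HGAL allele was combined with Aid-Cre (4 arrays), Mb1-Cre (5 arrays) or Sca1-Cre (4 arrays), and the 3 control arrays came from Wild Type mice. They were chosen by their titles, and the 3 tumour lines were weighted equally so that no line counted more for having more mice. The other 3 arrays, of Sca1-Cre spleens before tumours arose (pre-tumour), took part in the fit only and are given where they bear on a value. All mice lived in a conventional facility with common pathogens, ages were not given, and the wild-type mice are not labelled as carrying either the HGAL allele or a Cre. Each array held RNA of the total spleen of 1 mouse, without a sort, so tumour cells, resident cells and blood were measured together.

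HGAL (human germinal centre-associated lymphoma, whose mouse counterpart is Gcsam) is an adaptor protein that germinal centre B cells make. It binds the kinase Syk, which raises signalling from the B cell receptor, and it acts on RhoA, the small GTPase that sets cell shape and migration. The Cre drivers differ in when they act in the blood lineage. Sca1-Cre acts in haematopoietic stem and progenitor cells, Mb1-Cre from early B cell development onwards, and Aid-Cre in B cells that have been activated in the germinal centre. Each line thus models HGAL made in a different cell, and the comparison asks what spleens of all 3 lines had in common against wild type.

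Values are log2 expression, so a difference of 1 is a factor of 2 on the linear scale. Array medians lay between 5.23 and 5.40, and a gene is called near background below where both group means lay under 4.72, the lowest of the arrays' 40th percentiles. The arrays were uneven in 2 respects that touch the results. Signal from Y-linked genes was present in 7 of 13 tumour arrays (1 Aid-Cre, 4 Mb1-Cre and 2 Sca1-Cre), against 3 of 3 wild-type arrays. The Aid-Cre array was replicate 3, which alone stood for its line, at full weight, wherever only arrays with this signal were kept. Sex was not in the labels. Below, sex as a covariate means a score from these same arrays, the Y-linked genes minus Xist. Exocrine pancreas transcripts were high in Mb1-Cre tumour replicate 2, where the list mean stood at 2.43, and in wild type replicate 2 at 0.72, against -0.55 to -0.30 in the other tumour arrays and -0.43 and -0.29 in the other wild-type arrays. Arrays of 1 group correlated least in Aid-Cre tumours (lowest 0.929), then Mb1-Cre (0.953) and Sca1-Cre tumours (0.971), against 0.986 in wild type.

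Only 4 genes passed the test, and all 4 were lower in tumours: Pias3, Prelid2, Mir466h and Mir669a-3. They were 0.018% of the 22180 genes tested (limma, Benjamini-Hochberg adjusted p under 0.05, two-sided). No gene passed in the higher direction (0.0%), whereas array weights called 6 higher and 11 lower genes, and testing every probe set by itself called 19 higher and 24 lower probe sets. At an unadjusted p under 0.05 there were 1980 genes (8.93%), of which 865 were higher (3.9%) and 1115 lower (5.03%). The difference over all genes was balanced, with 11430 genes above 0 (51.5%), 10750 below it (48.5%) and a median of 0.00. The plot of all genes by difference and p shows how few stood apart.

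**Figure D1:**
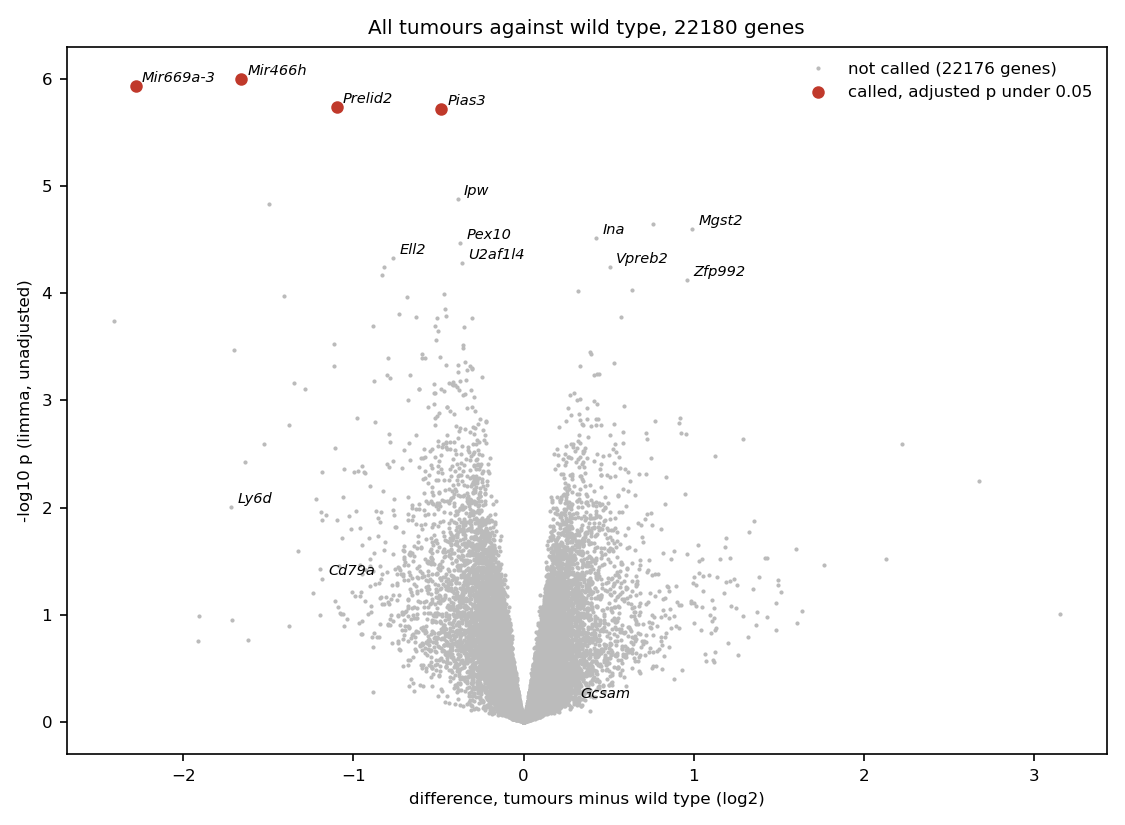
Each point is 1 of 22180 genes, with the difference of tumours (n = 13, lines weighted equally) minus wild type (n = 3) in log2 units on the x axis and the -log10 of limma's unadjusted p on the y axis. The 4 called genes, in red, all lie on the lower side, and larger differences such as Ly6d (-1.72) have higher p-values.

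Pias3 encodes a SUMO ligase that binds STAT3 and restrains its transcriptional activity. Its log2 expression ranged from 6.74 to 7.26 with a median of 7.06 in the 13 tumour arrays, against 7.44, 7.58 and 7.54 in the wild-type arrays. No tumour array reached the lowest wild-type array, and the tumours spanned a narrow range. Pias3 fell by 0.48 ± 0.07 (SE; adjusted p = 0.0106, limma), which is a 1.40-fold lower level. The difference was -0.36 ± 0.08 in Aid-Cre, -0.42 ± 0.08 in Mb1-Cre and -0.67 ± 0.08 in Sca1-Cre tumours (SE). The 3 lines lay on 1 side of wild type, and the difference among them missed the threshold (F-test adjusted p = 0.110).

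The other members of the Pias family did not pass. Pias1 ranged from 9.32 to 9.94 with a median of 9.59 in tumours, against 9.88, 10.01 and 9.73 in wild type, a difference of -0.28 ± 0.12 (adjusted p = 0.515). Pias2 differed by -0.20 ± 0.15 and Pias4 by -0.13 ± 0.13, so all 4 family members had a difference below 0 and 3 of them overlapped wild type. Among the cytokine feedback inhibitors, Socs1 differed by 0.10 ± 0.12, Socs2 by -0.02 ± 0.10, Socs3 by 0.02 ± 0.21 and Cish by 0.78 ± 0.61, the last with a span of 5.47 to 9.62 over the tumours. Of 16 measured genes of the JAK, STAT, PIAS and SOCS list, 7 were higher and 9 lower, with a median of -0.03, and 1 was called.

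Prelid2 belongs to a family of proteins related to the yeast Ups proteins, which carry phospholipids between the mitochondrial membranes. It ranged from 5.69 to 6.86 with a median of 6.24 in tumours, against 7.36, 7.07 and 7.44 in wild type. The groups did not overlap, and the highest tumour value came from Mb1-Cre replicate 2. Prelid2 fell by 1.10 ± 0.15 (SE; adjusted p = 0.0106), a 2.14-fold lower level. By line the difference was -1.40 ± 0.18 in Aid-Cre, -0.79 ± 0.17 in Mb1-Cre and -1.11 ± 0.18 in Sca1-Cre tumours (F-test adjusted p = 0.155). The related genes stood close to wild type, with Prelid1 at 0.05 ± 0.17, Prelid3a at 0.18 ± 0.10 and Prelid3b at 0.13 ± 0.18. Taz, the transacylase that remodels cardiolipin, ranged from 7.65 to 8.79 with a median of 8.20 in tumours, against 8.85, 9.04 and 8.53 in wild type. Its difference of -0.59 ± 0.18 did not pass (adjusted p = 0.363). Of 11 measured genes for mitochondrial phospholipid transfer, 6 were higher and 5 lower, and Prelid2 was the 1 that was called.

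Mir466h and Mir669a-3 are microRNA genes of a repeat-rich cluster inside an intron of Sfmbt2, a Polycomb group gene. Mature microRNAs pair with messenger RNAs through a seed, bases 2 to 8, and lower their stability or translation. An array probe set over such a gene reads the RNA of that locus, not the mature microRNA alone, and copies of the cluster share sequence. To show the kind of sequence these families carry, the mature forms of 2 of the 24 measured family members, from RefSeq (GRCm38.p6), are given 5′ to 3′ with the seed in capitals.
mmu-miR-466i-3p: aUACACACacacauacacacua
mmu-miR-467f: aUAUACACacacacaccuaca
Both consist largely of alternating pyrimidine and adenine bases, and their seeds are not the same. Both genes lie outside Sfmbt2 and stood near background, with differences of 0.03 ± 0.10 for Mir466i and 0.01 ± 0.11 for Mir467f.

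Mir466h ranged from 5.54 to 7.22 with a median of 5.94 in tumours, against 7.81, 7.77 and 7.72 in wild type. The wild-type arrays lay within 0.1 of each other, and every tumour array was below them. Mir466h fell by 1.66 ± 0.22 (SE; adjusted p = 0.0106), a 3.16-fold lower level. Mir669a-3 ranged from 4.44 to 6.54 with a median of 4.93 in tumours, against 7.10, 7.42 and 7.86 in wild type. It also had no overlap, and it fell by 2.28 ± 0.31 (adjusted p = 0.0106), a 4.85-fold lower level. In both genes Mb1-Cre replicates 2, 3 and 4 were the tumour arrays nearest to wild type, at 7.03, 6.97 and 7.22 for Mir466h and 6.28, 6.12 and 6.54 for Mir669a-3. The difference by line was -1.72 ± 0.26 (Aid-Cre), -1.13 ± 0.25 (Mb1-Cre) and -2.12 ± 0.26 (Sca1-Cre) for Mir466h, with an F-test adjusted p of 0.113. For Mir669a-3 it was -2.62 ± 0.36 (Aid-Cre), -1.61 ± 0.35 (Mb1-Cre) and -2.61 ± 0.36 (Sca1-Cre), with an F-test adjusted p of 0.167.

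**Figure D2:**
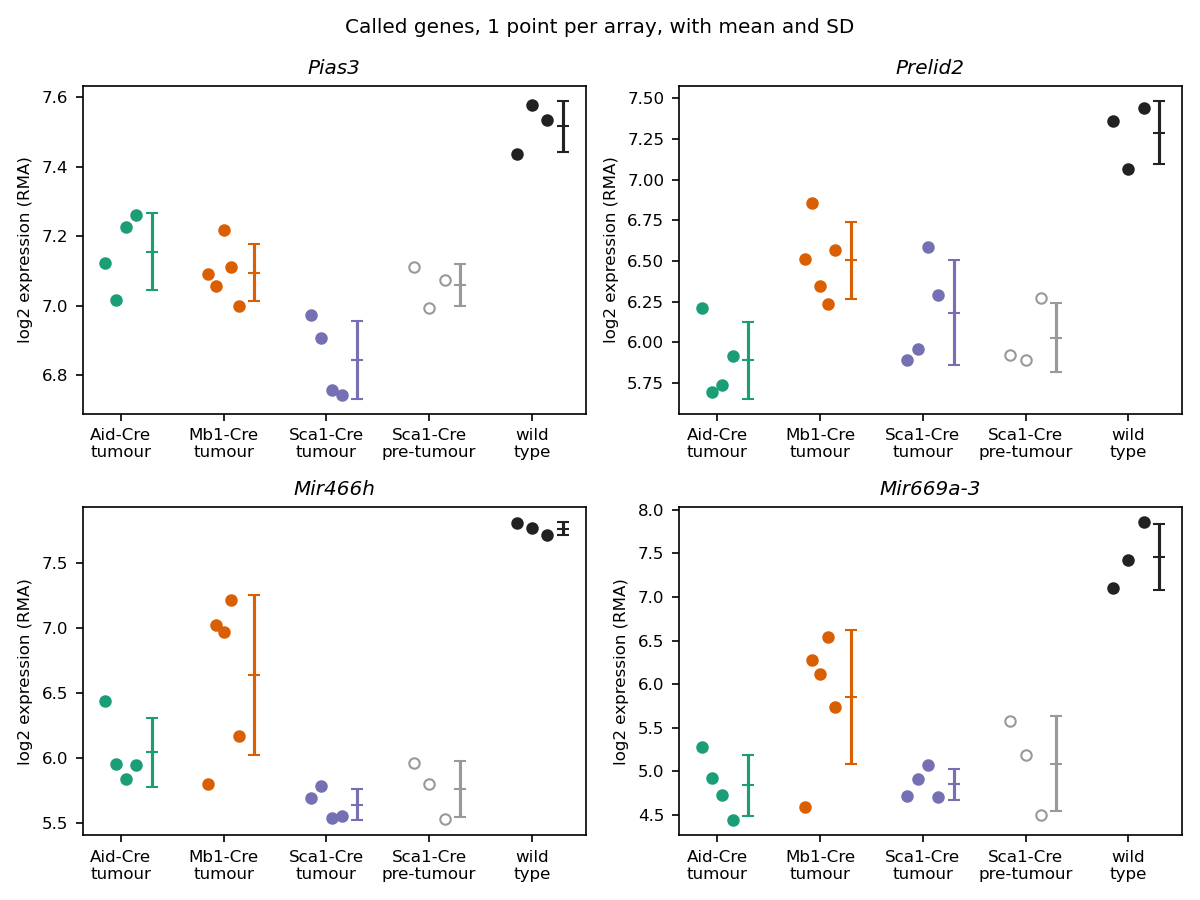
Log2 expression of the 4 called genes, with 1 point per array and the mean and SD of each group beside the points, for Aid-Cre (n = 4), Mb1-Cre (n = 5) and Sca1-Cre tumours (n = 4), Sca1-Cre pre-tumour spleens (n = 3, open points) and wild type (n = 3). All 13 tumour arrays and all 3 pre-tumour arrays lie below the 3 wild-type arrays in each panel.

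The pre-tumour spleens, which carry the HGAL allele and Sca1-Cre but had no tumour yet, were also below every wild-type array in all 4 genes. Pias3 stood at 7.11, 6.99 and 7.07 there and Prelid2 at 5.92, 5.89 and 6.27. Mir466h stood at 5.96, 5.80 and 5.53, and Mir669a-3 at 5.58, 5.19 and 4.50. These values lay within or close to the span of the tumours. For the called genes a tumour thus cannot be told apart from the genotype. Nor can it be told apart from a strain background or cohort, which the labels do not give and which the transgenic mice may share. In whole spleen, fewer cells of a type and less RNA per cell cannot be told apart either.

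The 4 calls rested on the small wild-type group and on the fit. Each was lost when any 1 of the 3 wild-type arrays was left out (adjusted p from 0.0645 to 0.261, limma), and all 4 were lost with sex as a covariate (0.0512 to 0.0695), without both arrays that held pancreatic transcripts (0.0703 to 0.253) and with the 13 tumours as 1 group (0.132 to 0.146). Pias3 alone was also lost with quantile normalization and with a variance trend and robust settings. The signs held under every alternative tried, with differences of -0.52 to -0.45 for Pias3, -1.24 to -1.02 for Prelid2, -1.71 to -1.54 for Mir466h and -2.46 to -2.06 for Mir669a-3.

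The rest of the microRNA cluster differed less than Mir466h and Mir669a-3, and not all of it in the same direction. Of 22 genes of the Mir297, Mir466, Mir467 and Mir669 families measured inside Sfmbt2, 15 were lower and 7 higher, with a median of -0.30, and 2 were called. Apart from Mir467c, the higher genes were all near background (Mir669e, Mir669b, Mir467d, Mir297b, Mir669m-2 and Mir669i). The cluster genes that were not near background were thus all lower except Mir467c, though only Mir466h and Mir669a-3 were called. All 13 tumour arrays lay below wild type in 5 of the 22, while across all genes this held for 104 (0.469%). The other 3 of those 5 were near background: Mir466o differed by -0.47 ± 0.09 (adjusted p = 0.114), Mir466b-2 by -0.63 ± 0.13 and Mir466g by -0.39 ± 0.09. Mir669m-1 and Mir297a-4 differed by -0.79 ± 0.22 and -0.88 ± 0.21 and overlapped wild type. Mir467c, well above background, did not share the direction and stood at 7.75 to 9.94 in tumours, with a median of 8.78, against 8.61, 8.67 and 9.04 in wild type, a difference of 0.06 ± 0.26. Mir467e differed by -0.13 ± 0.40. Mir467d was near background and differed by 0.37 ± 0.12. The host gene Sfmbt2 was near background and differed by 0.03 ± 0.09.

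A further 27 probe sets carried several microRNA symbols of these families and name no single gene. Of them 15 were lower and 12 higher, between -0.46 and 0.25 with a median of -0.33, and 0 were called, with a lowest adjusted p of 0.0873. Since 12 of the 22 genes were near background and copies share sequence, the levels of single copies are uncertain.

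**Figure D3:**
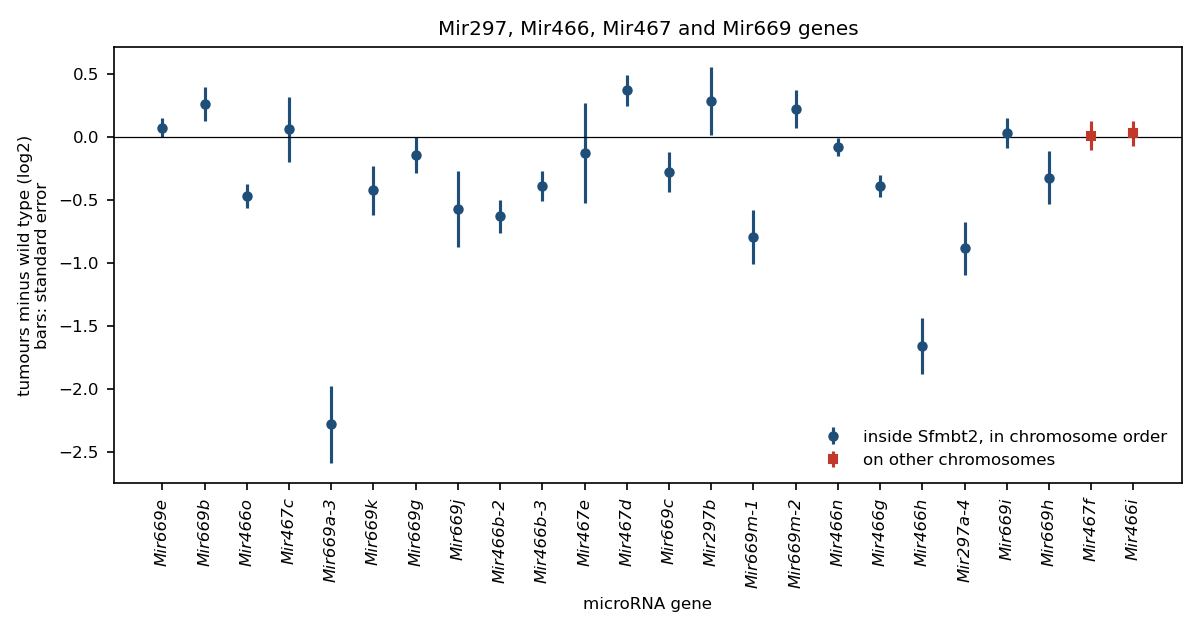
Difference of tumours minus wild type in log2 units, with the standard error as bars, for 24 microRNA genes, the 22 inside Sfmbt2 in chromosome order and then the 2 on other chromosomes. Mir669a-3 (-2.28) and Mir466h (-1.66) lie furthest below 0, while their neighbours range from -0.88 to 0.37.

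Each line was also set against wild type by itself. Aid-Cre tumours had 4 called genes (0.018%), which were Prelid2, Mir669a-3, Mir466h and, higher at 0.73 ± 0.11, Vpreb2 (adjusted p = 0.0372). Sca1-Cre tumours had 9 (0.0406%), among them all 4 genes of the pooled comparison, U2af1l4 (-0.50, adjusted p = 0.0389) and Ipw (-0.44, adjusted p = 0.0495). Mb1-Cre tumours had 0 (0.0%). The 3 comparisons share their wild-type arrays, so the recurrence of a gene in them is not independent. The difference among the tumour lines passed in 11 genes (0.0496%), while 3606 had an unadjusted p under 0.05. No gene named in this text was among the 11.

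A wider set of genes separated tumours from wild type without passing the test. All 13 tumour arrays lay above all wild-type arrays in 54 genes (0.243%) and below them in 104 (0.469%). On the higher side Mgst2, a microsomal glutathione transferase that can make leukotriene C4, ranged from 6.32 to 7.60 with a median of 7.07 in tumours, against 6.02, 5.90 and 6.06 in wild type. Its difference was 0.99 ± 0.17 (adjusted p = 0.0699), at 1.17 in Aid-Cre, 1.13 in Mb1-Cre and 0.68 in Sca1-Cre tumours. Vpreb2, a part of the surrogate light chain of pre-B cells, ranged from 5.89 to 6.59 with a median of 6.12 in tumours, against 5.80, 5.56 and 5.76 in wild type. The gap was narrow, with a difference of 0.51 ± 0.09 (adjusted p = 0.0904), and Vpreb2 has a near-identical copy, Vpreb1, whose transcripts may share its probes. Zfp992, a zinc finger gene, ranged from 6.60 to 8.10 with a median of 7.39 in tumours, against 6.58, 6.27 and 6.43 in wild type (0.96 ± 0.18, adjusted p = 0.104). Cldn9 (a tight junction claudin), Lin7b, Prickle1 (planar cell polarity), Bhlha9, Sybu and Hp1bp3 (a heterochromatin protein) differed by 0.21 to 0.41, and Ina, a neuronal intermediate filament near background here, by 0.43 ± 0.07.

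On the lower side Ell2, an elongation factor that plasma cells use to switch immunoglobulin messages to the secreted form, ranged from 10.79 to 11.65 with a median of 11.17 in tumours, against 12.16, 11.97 and 11.66 in wild type. The highest tumour array nearly touched the lowest wild-type array, and the difference was -0.77 ± 0.14 (adjusted p = 0.0904), or -0.49 with the mean of its probe sets. Pex10, a ubiquitin ligase of the peroxisome membrane, ranged from 5.73 to 6.12 with a median of 5.94 in tumours, against 6.27, 6.37 and 6.28 in wild type (-0.37 ± 0.07, adjusted p = 0.0757). U2af1l4, a relative of the small subunit of the splicing factor U2AF, ranged from 7.25 to 7.64 with a median of 7.42 in tumours, against 7.79, 7.77 and 7.76 in wild type (-0.36 ± 0.07, adjusted p = 0.0904). Klhl17 (-0.60 ± 0.13), Dnase1l2 (-0.68 ± 0.14), Tmod4 (-0.52 ± 0.11) and Ccdc137 (-0.46 ± 0.09) followed. Lsamp differed by -0.35, and Ipw, an imprinted non-coding RNA, and Cyp2c37 by -0.39 and -0.46 near background. Some genes of both sides were called under alternatives. Ipw was called in 1 of 16 that left out 1 array and in 7 of 13 others. For Mgst2 this held in 1 of 16 and 3 of 15.

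**Figure D4:**
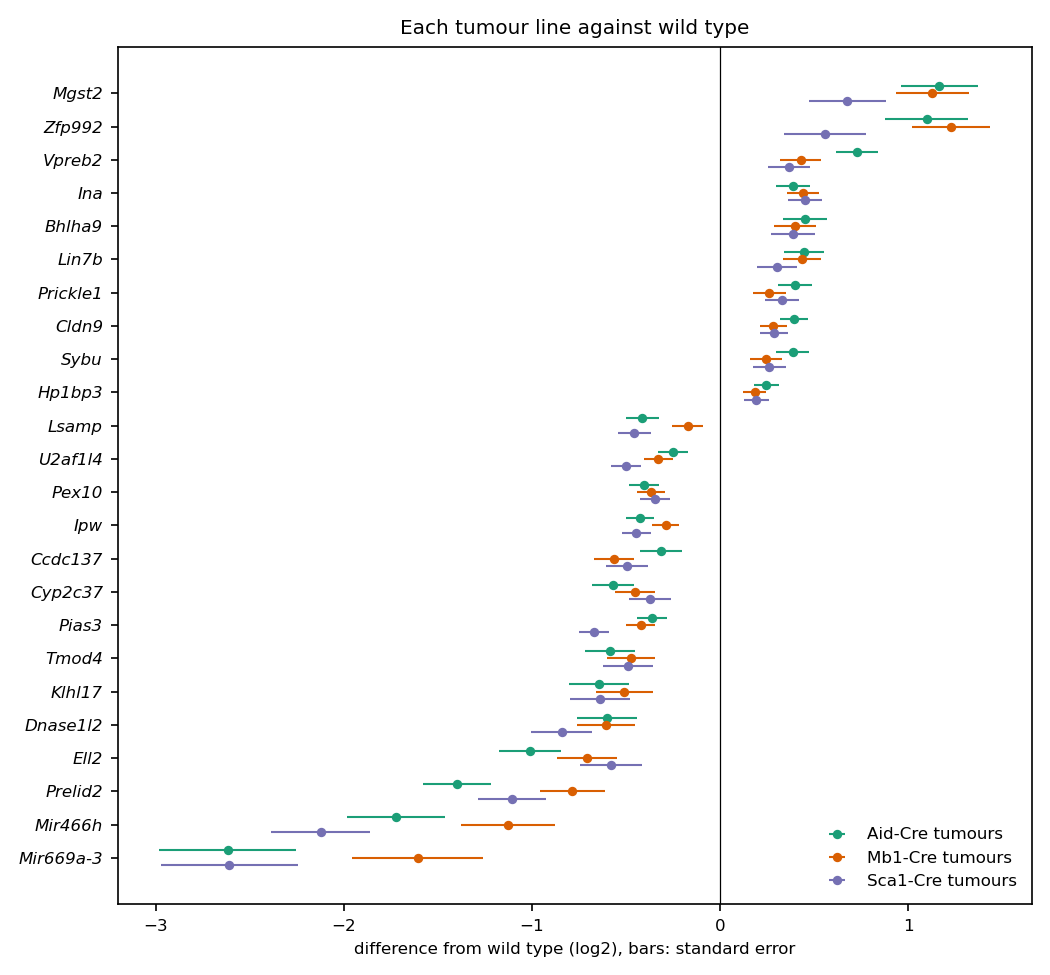
Difference of Aid-Cre, Mb1-Cre and Sca1-Cre tumours from wild type in log2 units, with the standard error as bars, for the 4 called genes and 20 genes whose tumour arrays did not overlap wild type, ordered by the pooled difference. All 3 lines share the sign in each gene, which follows from the absence of overlap and is no separate result. The lines are most apart in Mir669a-3, Mir466h and Prelid2, where Mb1-Cre tumours lie nearest to wild type.

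The partners of HGAL in the cell were next examined. The mouse counterpart Gcsam ranged from 5.12 to 10.41 with a median of 5.74 in tumours, against 6.02, 5.92 and 5.36 in wild type. A single array, Sca1-Cre replicate 4, held the high value, and the other 12 tumour arrays lay at or below 6.38. The pooled difference was 0.30 ± 0.64 (adjusted p = 0.923), -0.07 without that array and 0.72 with sex as a covariate. Whether the mouse probe set also reads the human transgene was not tested, so the level of HGAL itself is not given. Rhoa, whose protein HGAL acts on, ranged from 11.01 to 11.32 with a median of 11.17 in tumours, against 10.94, 11.00 and 10.78 in wild type. All tumours were above wild type by a narrow margin, and the difference of 0.24 ± 0.08 did not pass (adjusted p = 0.374). Syk differed by -0.42 ± 0.34 and Plcg2, a phospholipase downstream of it, by -0.24 ± 0.20. Of 15 measured genes of B cell receptor signalling, 2 were higher, 13 lower and 0 called, with a median of -0.22, or -0.05 with only the arrays that had Y-linked signal.

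B cell genes tended to be lower, and none passed. Each list below is described by the share of its measured members on each side of 0 and by its median difference, beside 51.5% higher and a median of 0.00 over all genes. All 16 measured B cell identity genes were lower, with a median of -0.85. Ly6d, a surface marker of B cells, ranged from 7.16 to 10.49 with a median of 8.64 in tumours, against 10.69, 11.07 and 10.21 in wild type (-1.72 ± 0.59, adjusted p = 0.421). Cd79a, a signalling chain of the B cell receptor, ranged from 8.97 to 12.34 with a median of 11.02 in tumours, against 12.10, 12.38 and 12.03 in wild type (-1.18 ± 0.55, adjusted p = 0.551). Cd37 differed by -0.71 ± 0.32 and the adaptor Blnk by -0.90 ± 0.48. The tumours were far from alike: the list mean, relative to the wild-type mean, ran from -2.99 in Aid-Cre replicate 2 to 0.19 in Aid-Cre replicate 3, with a median of -0.88, against -0.22 to 0.17 in wild type. Aid-Cre replicate 3 was the 1 tumour array above the highest wild-type array. With only the 7 tumour and 3 wild-type arrays that had Y-linked signal, the median of the list was -0.38, and with sex as a covariate over all arrays it was -0.61. In the first of these settings Aid-Cre replicate 3, the highest tumour array of this list, alone stood for its line. That array also had the lowest list mean of all tumour arrays for neutrophil and for mitosis genes. Sex and the weight of that array cannot be told apart in that setting.

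Mature B cell subsets had the same direction. All 6 follicular B cell genes were lower (median -0.85), with Cxcr5, the follicle homing receptor, at -0.96 ± 0.48 and Fcer2a (CD23) at -1.38 ± 0.86. Of 9 marginal zone genes 3 were higher and 6 lower (median -0.63). Myof was at -0.97 ± 0.30 and Notch2, the receptor that drives the marginal zone fate, at -0.51 ± 0.22. Genes of class II antigen presentation were lower in 9 of 9 (median -0.52), with H2-DMb1 at -0.84 ± 0.39 and the transactivator Ciita at -0.71 ± 0.49. The medians of these 3 lists were -0.35, -0.39 and -0.23 with only the arrays that had Y-linked signal. NF-kB genes were lower in 9 of 11 (median -0.27, or -0.11 with those arrays only), with Nfkb2 at -0.52 ± 0.29 and Relb at -0.27 ± 0.15. The NF-kB median by line was -0.40 in Aid-Cre, -0.37 in Mb1-Cre and 0.07 in Sca1-Cre tumours, a difference that was not tested.

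Germinal centre genes were higher in 11 of 11, with a median of 0.34, but this rested on 1 mouse. The list mean was 2.81 in Sca1-Cre replicate 4, between -0.16 and 0.29 in the other 12 tumours, and between -0.09 and 0.06 in wild type. In that array Mybl1, a transcription factor of germinal centre B cells, stood at 10.60 and S1pr2, the receptor that keeps cells in the follicle, at 9.37, while their tumour medians were 6.11 and 7.17. Without it the list's median was 0.02. Precursor B cell genes were mixed, with 5 of 8 higher and a median of 0.09, which was -0.13 when genes whose mean was under the array median were left out and 0.14 without wild type replicate 2. Beside Vpreb2, Sox4 differed by 0.42 ± 0.16 and Igll1, the partner of the VpreB chains, by 0.19 ± 0.10. Of 14 plasma cell genes 9 were higher and 5 lower (median 0.11, or 0.01 without wild type replicate 2, 0.21 without replicate 3 of that group, and 0.04 and 0.17 without Aid-Cre replicates 1 and 2). Ell2 led the lower ones, Xbp1, the master factor of secretory cells, differed by 0.28 ± 0.16, and Sdc1 by 0.18 ± 0.12.

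T cell genes varied by mouse. Of 16 measured genes 4 were higher and 12 lower, with a median of -0.22, which ran from -0.36 without wild type replicate 3 to 0.04 without wild type replicate 2. By line the median was -0.41 in Aid-Cre, -0.56 in Mb1-Cre and 0.39 in Sca1-Cre tumours. The list mean ran from -1.60 to 0.89 in tumours, against -0.30 to 0.45 in wild type. Cd3e, a chain of the T cell receptor complex, ranged from 7.97 to 11.24 in tumours, against 10.24, 10.53 and 9.94 in wild type (-0.45 ± 0.42, adjusted p = 0.779). Checkpoint and follicular helper genes were higher in 11 of 13 (median 0.50). Tigit, an inhibitory receptor, ranged from 5.45 to 9.40 with a median of 6.35 in tumours, against 6.03, 5.46 and 5.25 in wild type (1.19 ± 0.56, adjusted p = 0.558). Ctla4 differed by 0.69 ± 0.34, Havcr2 by 0.77 ± 0.45 and Maf by 0.65 ± 0.37. The median of this list was 0.00 in Aid-Cre, 0.04 in Mb1-Cre and 1.26 in Sca1-Cre tumours, and Sca1-Cre replicates 3 and 4 held the highest list means, at 1.73 and 1.66. Differences between lines in a list were not tested, here or below. Of the regulatory T cell list 9 of 10 members were higher (median 0.18, or 0.02 without wild type replicate 3), with Itgae at 0.40 ± 0.17, or 0.64 and 0.22 without wild type replicates 2 and 3. The median of that list was 0.00 in Aid-Cre, 0.01 in Mb1-Cre and 0.50 in Sca1-Cre tumours. NK and cytotoxic genes were higher in 9 of 14 with a median of 0.04, which ran over the alternatives from -0.07 (with sex as a covariate) to 0.22 (without wild type replicate 2), with -0.05 without wild type replicate 3. Gzmb ranged from 4.93 to 9.78 over the tumours (0.83 ± 0.68, or 0.20 with sex as a covariate).

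Myeloid genes were higher in most tumours, with a spread as wide as the difference. The list of neutrophil genes and their granulocyte precursors had 16 of 17 members higher (median 1.06). Ly6g, the neutrophil surface marker, ranged from 4.02 to 10.76 with a median of 8.89 in tumours, against 5.16, 7.09 and 7.68 in wild type (1.64 ± 0.92, adjusted p = 0.622, or 0.90 without wild type replicate 1). The list mean stood between 1.49 and 2.52 in 9 tumours, at -0.29 and 0.04 in Sca1-Cre replicates 1 and 4 and at -1.78 and -1.71 in Aid-Cre replicates 3 and 4, against -0.96, -0.01 and 0.97 in wild type. The median difference was 0.02 in Aid-Cre, 2.19 in Mb1-Cre and 0.65 in Sca1-Cre tumours. Leaving out wild type replicate 1 gave 0.44, leaving out replicate 3 of that group gave 1.61, and keeping only the arrays that had Y-linked signal gave 0.40, while sex as a covariate gave 0.55.

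Other myeloid lists leaned the same way. The macrophage and red pulp list had 16 of 18 members higher (median 0.27, or 0.50 without wild type replicate 3 and 0.15 with only the arrays that had Y-linked signal), with Vcam1 at 0.83 ± 0.43, C1qb (complement) at 0.85 ± 0.50 and Cd5l at 0.91 ± 0.49. Without wild type replicate 1, Vcam1 was at 0.33 and C1qb at 0.42, and without replicate 2 of that group Cd5l was at 0.52. Without replicate 3, C1qb was at 1.30 and Cd5l at 1.49. In mast cells and basophils, 9 of 10 markers were higher (median 0.25, or 0.15 without Sca1-Cre replicate 3, 0.12 with only the arrays that had Y-linked signal and 0.86 with dim genes left out), among them Cpa3, a granule protease, at 1.21 ± 0.57, and Hdc, which makes histamine, at 1.15 ± 0.49. The leukotriene and microsomal glutathione transferase list, chosen for its relation to Mgst2, was higher in 9 of 10 (median 0.65, or 0.30 with only the arrays that had Y-linked signal). Lta4h, which makes leukotriene B4, ranged from 8.42 to 10.46 with a median of 9.64 in tumours, against 8.42, 8.62 and 8.74 in wild type (0.95 ± 0.26, adjusted p = 0.310). Mgst1 differed by 0.72 ± 0.26. The list mean was low in Aid-Cre replicates 3 and 4, at -0.24 and -0.20, as the neutrophil list mean was, and the part of neutrophil content in it was not tested. Dendritic cell genes were lower in 6 of 10 (median -0.16), with Siglech, a plasmacytoid marker, at -0.70 ± 0.28. The median was -0.05 without wild type replicate 1 and -0.10 without Aid-Cre replicate 2, and Siglech was at -0.34 without wild type replicate 2.

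Red cell genes gave no shared direction across mice. Of 15 erythroid genes 14 were lower, yet the median was only -0.11. Klf1, the master factor of red cells, ranged from 5.60 to 10.52 with a median of 8.90 in tumours, against 9.10, 8.55 and 8.93 in wild type (-0.65 ± 0.98, adjusted p = 0.884). The list mean ran from -2.16 in Mb1-Cre replicate 1 to 1.30 in Mb1-Cre replicate 4, against -0.45 to 0.37 in wild type. Leaving out any of Aid-Cre replicate 3, Mb1-Cre replicate 1 or wild type replicate 3 turned its median positive, at 0.05, 0.03 and 0.04. It was -0.41 without wild type replicate 2, -0.37 without both arrays that held pancreatic transcripts and -0.42 with only the arrays that had Y-linked signal. Megakaryocyte genes were higher in 6 of 9 (median 0.08), with Pf4 at 0.68 ± 0.37, and stem and progenitor genes in 9 of 9 (median 0.15, or 0.25 without wild type replicate 3), with Kit at 0.32 ± 0.22. The megakaryocyte median was below 0 in 4 alternatives, at -0.04 with sex as a covariate, -0.07 without wild type replicate 2, -0.04 without both arrays that held pancreatic transcripts and -0.10 with only the arrays that had Y-linked signal. Endothelial and stromal genes were higher in 11 of 15 (median 0.06, or 0.01 without Mb1-Cre replicate 2 and -0.01 with only the arrays that had Y-linked signal). Exocrine pancreas genes, a check for tissue carried along, were lower in 9 of 11 (median -0.17, or 0.22 without wild type replicate 2 and -0.42 without Mb1-Cre replicate 2).

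Proliferation genes split the tumours in the same manner. Mitosis genes were higher in 16 of 19 (median 0.22) and DNA replication genes in 18 of 19 (median 0.27), and none passed. By line the mitosis median was -0.02 in Aid-Cre, 0.62 in Mb1-Cre and 0.06 in Sca1-Cre tumours. For DNA replication it was 0.07 in Aid-Cre, 0.38 in Mb1-Cre and 0.31 in Sca1-Cre tumours. The mitosis list mean ran from -1.59 in Aid-Cre replicate 3 to 1.51 in Mb1-Cre replicate 4, with 4 tumours under -0.8, against -0.38 to 0.24 in wild type. Bub1b, a spindle checkpoint kinase, ranged from 5.81 to 8.77 with a median of 8.06 in tumours, against 7.17, 6.76 and 7.02 in wild type (0.69 ± 0.52, adjusted p = 0.718). With 1 array left out, the median of the mitosis list ran from 0.03 (without wild type replicate 2) to 0.39 (without Sca1-Cre replicate 1, and also without Aid-Cre replicate 3), and it was 0.03 with only the arrays that had Y-linked signal. That of the DNA replication list was 0.04 without wild type replicate 2 and 0.17 without Aid-Cre replicate 2. Mcm6, a subunit of the replicative helicase, differed by 0.56 ± 0.35, or 0.34 without wild type replicate 2.

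Ribosome biogenesis genes went both ways, with 9 of 15 higher and a median of 0.07, or -0.05 without wild type replicate 3. Nop56, a core protein of small nucleolar ribonucleoproteins, ranged from 8.86 to 11.21 with a median of 9.92 in tumours, against 11.86, 10.89 and 10.63 in wild type. Its difference was -1.28 ± 0.31 (adjusted p = 0.222), and Ppan differed by -0.95 ± 0.29, while nucleolin (Ncl) stood at 0.34 ± 0.14. When probe sets were averaged per gene, Nop56 differed by -0.45 and Ppan by -0.49, and Ppan by -0.63 without wild type replicate 1. Oxidative phosphorylation genes were higher in 14 of 18 (median 0.09), with Cycs, cytochrome c, at 0.44 ± 0.16. Glycolysis genes were higher in 9 of 11 (median 0.35), with Pgam1 at 0.56 ± 0.20 and Hk2 at 0.51 ± 0.20.

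Stress and cytokine response genes leaned higher. Of the p53 targets 11 of 12 were higher, with a median of 0.18. Their list mean was between 0.07 and 0.53 in every tumour array, against -0.05 to 0.04 in wild type, so the groups did not overlap, although no single member kept them apart. Its median was 0.10 with only the arrays that had Y-linked signal. Mdm2, the ubiquitin ligase that p53 induces against itself, ranged from 8.06 to 8.79 with a median of 8.20 in tumours, against 8.01, 8.10 and 7.95 in wild type (0.26 ± 0.09, adjusted p = 0.420). Cdkn1a, the cell cycle inhibitor p21, differed by 0.48 ± 0.23, and no member was called. Unfolded protein response genes were higher in 15 of 16 (median 0.20), with Hspa5, the chaperone BiP, at 0.31 ± 0.14. The median of that list was 0.02 in Aid-Cre, 0.17 in Mb1-Cre and 0.38 in Sca1-Cre tumours. Immediate early genes were higher in 12 of 14 (median 0.45), with Jun at 1.18 ± 0.47, Egr1 at 1.05 ± 0.48 and Fos at 1.38 ± 0.64. Without wild type replicate 2, Jun was at 0.67 and Fos at 0.45, and Fos was at 2.22 without wild type replicate 3. The immediate early list mean was highest in Mb1-Cre replicate 1 at 1.57, Aid-Cre replicate 3 at 1.32 and Sca1-Cre replicate 1 at 1.16, against -0.46 to 0.46 in wild type.

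Type I interferon response genes were higher in 17 of 19, with a median of 0.49. Ifit1, an antiviral protein, ranged from 6.49 to 10.64 with a median of 7.68 in tumours, against 6.77, 6.91 and 6.65 in wild type (1.25 ± 0.68, adjusted p = 0.612). Aid-Cre replicate 2, Sca1-Cre replicate 3 and Mb1-Cre replicate 2 held the highest list means, at 1.47, 1.29 and 1.12, while 3 tumours were below 0 and wild type lay between -0.07 and 0.11. With only the arrays that had Y-linked signal the median was 0.18. Interferon gamma response genes were higher in 11 of 13 (median 0.30). That median was 0.05 with sex as a covariate, 0.08 with only the arrays that had Y-linked signal, and 0.15, 0.19 and 0.16 without Aid-Cre replicate 2, Sca1-Cre replicate 3 or wild type replicate 3. By line it was 0.13 in Aid-Cre, -0.10 in Mb1-Cre and 0.39 in Sca1-Cre tumours. Ifng itself ranged from 4.90 to 8.19 with a median of 5.27 in tumours, against 5.28, 4.90 and 5.06 in wild type (0.70 ± 0.43, adjusted p = 0.654). Genes of class I processing were balanced, with 4 of 9 higher and a median of -0.02, which lay between -0.16 and 0.07 with 1 array left out, at the ends without wild type replicates 3 and 1.

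**Figure D5:**
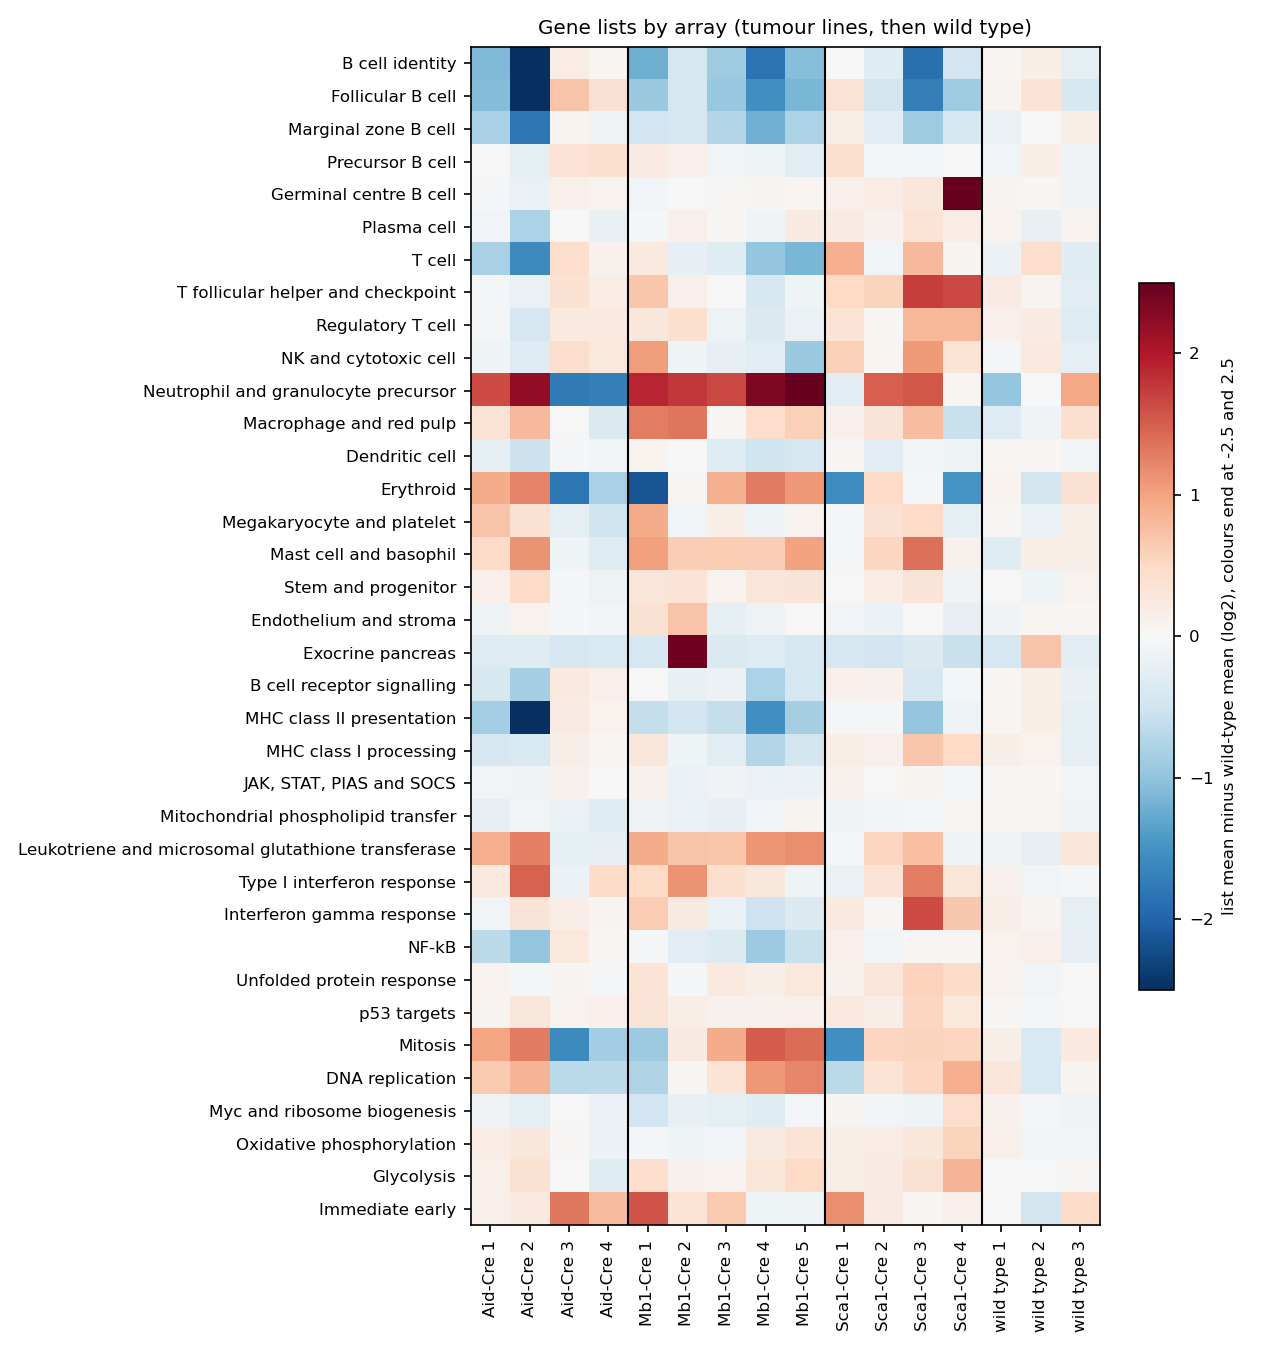
Mean of each gene list relative to the wild-type mean in log2 units, by colour (red higher, blue lower, colours end at -2.5 and 2.5), with 1 column for each of the 13 tumour arrays and then the 3 wild-type arrays. Neutrophil, erythroid and mitosis lists change sign between tumours of 1 line, the germinal centre list stands at 2.81 in Sca1-Cre replicate 4, and the p53 list is above wild type in all 13.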

How the data were processed

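Per the labels' protocols, biotin-labelled Trizol RNA of whole spleens was read on Affymetrix arrays. The deposited table holds log2 values for each probe set, which the authors made with RMA in oligo, per the submitters' processing notes (versions not given in the sources used here). They were used as deposited, and 0 columns were left unused. Of 41345 probe sets 23521 had 1 gene symbol, 1814 several and 16010 none. Of the first, 23328 matched the RefSeq gene table by gene identifier, with 0 symbols updated, and only probe sets with 1 symbol name a gene here. For 1082 genes with several probe sets the one with the highest mean was kept, which left 22180 genes with no filter on dim ones. The number of arrays limits the precision.

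Groups came from the array titles. Limma 3.58.1 in R 4.3.3 fitted 5 group means to all 19 arrays (14 residual and 2.46 prior degrees of freedom), and the mean of the 3 tumour group means minus wild type was tested, two-sided, with Benjamini-Hochberg adjustment over all genes and calls under 0.05. A moderated F-test compared the tumour lines. The fit was tested on simulated data. Titles call the samples biological replicates, and p-values measure the spread between them.

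Genes were named if called, if among the 10 of each direction with the smallest p with separate groups (small RNAs, predicted and sex-linked genes, immunoglobulin and receptor segments, and olfactory and vomeronasal receptors not counted), if Gcsam or Cd79a, if among the 4 smallest p of a list, or if of a called gene's family. Ly6a was not analysed here. The 36 gene lists carry no test. Members and lists were chosen with earlier results of these data known. Alternatives were other scalings, filters, probe set rules, fits, a sex covariate, a replicate block, and arrays left out. The sex covariate was an expression score of each array, the mean of Kdm5d, Uty and Eif2s3y minus Xist, and not a recorded sex. Arrays with the same replicate number were not more alike, and they were not paired in the main fit. Python 3.11.15, pandas 2.3.3 and matplotlib 3.10.9 made tables and figures.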

Additional observations from a re-analysis of the deposited data

Results flagged for a closer look

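Some values stood apart from the rest of their own group. Of 504 sets of tumour arrays tested (a gene or list in 1 line), 31 held an array far from the others, and chance alone gives about 1 in 20. The count was close to that share, and many of the genes are also members of the lists. The flags below are therefore description only. Of these, 21 were genes and 10 were list means.

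Mb1-Cre replicate 1 stood apart most often. It was also the only Mb1-Cre array without Y-linked signal, and a link between these was not tested. Its values were 6.40 for Vpreb2, 6.85 for Klhl17, 7.76 for Myof, 6.91 for Ermap, 6.59 for Ifng and 9.56 for Dnajc3. Its list means relative to wild type were 0.94 for megakaryocyte and platelet genes, 0.10 for JAK, STAT, PIAS and SOCS genes and 0.33 for p53 targets. Sca1-Cre replicate 4 stood apart in Gcsam at 10.41, Mybl1 at 10.60 and the germinal centre list at 2.81. Mb1-Cre replicate 2 stood apart in the exocrine pancreas list at 2.43 and in Prss2, a trypsin, at 4.60.

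Sca1-Cre replicate 1 differed from the other Sca1-Cre tumours in Hp1bp3 at 8.64 and Bub1b at 5.81, and in the list means of precursor B cell (0.41), mitosis (-1.54) and immediate early genes (1.16). Sca1-Cre replicate 3 differed in Blnk at 8.76, Havcr2 at 9.08, Socs2 at 5.91, Wdfy4 at 9.01, H2-DMb1 at 6.78 and the class II presentation list at -0.99. Single values were Ipw at 3.69 in Aid-Cre replicate 3 and 4.02 in Mb1-Cre replicate 4, Lsamp at 4.42 in Mb1-Cre replicate 5, Stab2 at 6.52 in Aid-Cre replicate 2, Mdm2 at 8.28 in Aid-Cre replicate 3 and the stem and progenitor list at 0.0921 in Mb1-Cre replicate 3.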

How the results depend on the processing

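With 4 genes called, other settings gave 4 to 6 calls (quantile, cyclic loess or median centring, both filters on dim genes, the mean of probe sets, only 16 arrays, a variance trend with robust settings). Quantile normalization and the variance trend with robust settings each kept 3 of the 4, with Ipw called in place of Pias3. Testing every probe set by itself gave 43 calls (19 higher, 24 lower), 31 of them without a symbol, and array weights gave 17 (6 higher, 11 lower). There were 0 calls with the 13 tumours as 1 group (1767 genes at an unadjusted p under 0.05, limma), with a covariate for sex (1401) and with both arrays of pancreatic transcripts left out (1320). With only arrays that had Y-linked signal, an alternative chosen after seeing the data, there was 1 call, Mir669a-3. The fit with the replicate number as a block gave 0 calls (1625 at an unadjusted p under 0.05). Deviations of same-numbered arrays from their group means had a mean correlation of -0.15 over 21 pairs, against 0.04 over 74 pairs of other numbers. A same-numbered array was the best match for 0 of 16 arrays, and for Mb1-Cre replicate 5 no such match existed. These values gave no sign of pairs, and a shared batch was not tested for. Leaving out 1 array at a time gave 0 to 9 calls, with 0 without wild type replicate 2 (1282 at an unadjusted p under 0.05), 1 each without wild type replicate 1 (Rpl31-ps21) or 3 (Vmn2r96), 7 without Mb1-Cre replicate 4 and 9 without Aid-Cre replicate 4. The cause of these shifts was not tested, and a smaller number of arrays was not separated from which array was left out.

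Pias3, Prelid2, Mir466h and Mir669a-3 stayed below 0 in all 31 alternatives and were each called in 13 of 16 that left out 1 array, and in 8, 10, 10 and 11 of the 15 others. Signs turned in some other genes, none of them called, and the largest main difference among those was that of Gcsam, at 0.2958. Medians of several lists turned as well. Gcsam was -0.1185 under the replicate block and -0.0734 to 0.4457 with 1 array left out, the lowest without Sca1-Cre replicate 4. B2m ran from -0.0174 (without wild type replicate 3) to 0.2359 and Sfmbt2 from -0.0302 (without wild type replicate 1) to 0.1113. Prelid1 was -0.0154 with quantile normalization and ran from -0.0118 to 0.1127. Mir466i ran from -0.0188 to 0.0967 and Mir467f from -0.0196 to 0.0289. Mir467c ran from -0.0207 to 0.1931 and Mir467e from -0.2405 to 0.0376, and with only the arrays that had Y-linked signal they were -0.0058 and 0.1400, with Mir467c at -0.0085 without the pancreatic arrays. Socs1 ran from -0.0754 to 0.2297. Socs2 ran from -0.0896 to 0.0423 and was 0.0083 under the replicate block. Socs3 ran from -0.2176 to 0.1561 and was -0.1136 with sex as a covariate, -0.1853 without the pancreatic arrays and -0.0497 with only the arrays that had Y-linked signal. The mast cell and basophil list had a median of 0.86 with either filter on dim genes. Low signal limits the values of genes near background.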
